A study of Homo sapiens with 10 samples.

Results

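Histone genes were followed in HeyA8, a line of human ovarian cancer cells in long use. The genes were chosen by symbol alone: the protein-coding linker (H1) genes, the numbered copies of the H2AC, H2BC, H3C and H4C families, and the variants H2AX, H2AZ1, H2AZ2, H3-3A, H3-3B and MACROH2A1. This gave 75 of the 58395 genes counted, of which 65 are replication-dependent copies, 6 are variants and 4 are linker genes that are not tied to replication. H2AC18, H2AC19, H3C2 and H3C3 match the same symbols and are not analysed here.

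The cells were transfected with duplex siRNA at 10 nM, and total RNA was taken after 24 or 48 h. siGGGGGC and siGGCAGU are named after the 6mer seed of their guide strand, positions 2 to 7, and the seed of siGGCAGU is the one found in miR-34a-5p. Control cells received siNT1, a non-targeting duplex, so every group was transfected. In all duplexes the passenger strand, the partner of the guide strand, was chemically modified. Medium was changed at 24 h in the wells kept to 48 h, which cannot be told apart from time. The 5 groups were siNT1 at 24 h, siGGGGGC at 24 h, siNT1 at 48 h, siGGCAGU at 48 h and siGGGGGC at 48 h, each with n = 2 libraries from duplicate wells of 1 cell line, so the spread between libraries is that of wells and libraries.

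Histones package DNA into nucleosomes, each built of H2A, H2B, H3 and H4, with a linker histone H1 sitting on the DNA between them. Most of these proteins come from clustered, intronless genes that are transcribed in S phase, when new DNA has to be packaged. Their mRNAs end in a short stem-loop in place of a poly(A) tail, and this stem-loop is bound by SLBP, which directs 3′ end formation, translation and decay. Variants such as H3.3 and H2A.Z are made outside S phase too, mostly from polyadenylated mRNAs. The libraries were made from ribosomal RNA-depleted total RNA, so mRNAs without a poly(A) tail were kept.

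The stem-loop was found in the sequences of these genes and is shown because it separates the classes. The histone stem-loop consensus of 16 bases was present in the annotated 3′ UTR of 65 of 65 replication-dependent copies, of 1 of 6 variants (H2AX) and of 0 of 4 replication-independent linker genes, against 0.486% of 19550 protein-coding genes with a 3′ UTR. The 3 commonest forms were those of H2BC8 (shared by 36 members), H4C3 (by 10, all H4 genes) and H2BC4 (by 9). The others shown belong to members whose counts stand apart below. Capitals mark the stem-loop, and 5 neighbouring bases are in lower case where the transcript reaches that far.
H2BC8 (chr6:26216213-26216238, minus strand, hg38): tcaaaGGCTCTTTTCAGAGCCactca
H4C3 (chr6:26104312-26104337, plus strand, hg38): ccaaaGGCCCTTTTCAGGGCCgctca
H2BC4 (chr6:26123467-26123492, minus strand, hg38): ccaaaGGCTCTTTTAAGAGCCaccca
H2BC10 (chr6:26273387-26273412, plus strand, hg38): ccaaaGGCTCTTCTAAGAGCCaccca
H4C13 (chr6:27873148-27873173, minus strand, hg38): tcaaaGGCCCTTCTCAGGGCCaccca
H4C16 (chr12:14770720-14770744, minus strand, hg38): caaaaGGCCCTTTTCAGGGCCccca
H3C6 (chr6:26225591-26225616, plus strand, hg38): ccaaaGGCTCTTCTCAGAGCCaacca
H2AC20 (chr1:149887386-149887411, plus strand, hg38): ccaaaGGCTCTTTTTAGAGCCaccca
H2AC25 (chr1:228457364-228457389, minus strand, hg38): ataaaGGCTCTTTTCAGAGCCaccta
H2AX (chr11:119094893-119094918, minus strand, hg38): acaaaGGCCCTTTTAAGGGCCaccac

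The stem-loop began between 22 and 62 bases after the stop codon of the replication-dependent copies, with a median of 35. Their annotated 3′ UTR was short, with a median of 56 bases against 1064 over protein-coding genes. The hexamer complementary to the siGGGGGC seed, written in DNA letters as GCCCCC, was in the 3′ UTR of 5 of the 65 copies (7.69%, against 28.4% of protein-coding genes). The match for the other duplex was ACTGCC, and 1 copy held it there (1.54%, against 30.6%). The mature miR-34a-5p from RefSeq is printed with bases 2 to 8 in capitals, since siGGCAGU shares 6 of them.
miR-34a-5p (chr1:9151735-9151756, minus strand, GRCh38.p14): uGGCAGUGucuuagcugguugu

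The promoters of the clustered genes were rich in a few sequence elements. RefSeq windows from 250 bases before to 50 after the start were given for 60 of the 65 copies, in 64 windows. On either strand, TATAA was in 90.6% of these windows and in 20.4% of all 35116 promoter windows, and CCAAT was in 84.4% against 34.6%. CCAAT was in 100% of the H1, H2AC, H2BC and H3C windows but in 23.1% of the H4C windows. The octamer ATTTGCAT, the element bound by POU2F1 in H2B promoters, was in 42.2% against 1.77%, and among the families it was in 75.0% of H2BC and 78.6% of H2AC windows. Windows of head-to-head genes overlap, so the same site can be counted for the H2A and the H2B gene. The H2BC11 site below, for example, also lies in the H2AC11 window (27132793 to 27133092). The octamer shares are therefore not shares of separate sites. Sites of 3 H2B genes that lie head to head with an H2A gene are shown, with the octamer in capitals, since these pairs are compared below.
H2BC21 (chr1:149886710-149886739, minus strand, GRCh38.p14): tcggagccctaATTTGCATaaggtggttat
H2BC11 (chr6:27132824-27132853, minus strand, GRCh38.p14): ctcttcaccttATTTGCATaagcgattcta
H2BC14 (chr6:27814963-27814992, plus strand, GRCh38.p14): ttctactcctaATTTGCATaataacattta

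The replication-dependent copies comprised 6 H1, 15 H2AC, 18 H2BC, 11 H3C and 15 H4C genes. On chromosome 6, 53 of them lie between 25723397 and 27893891 (hg38). Another 9 lie on chromosome 1 between 149782689 and 149887965, 2 on chromosome 1 between 228434777 and 228463104, and 1 (H4C16) on chromosome 12. Of the 65 copies, 55 had enough counts to be tested, as had the 6 variants and 2 of the other linker genes. The 10 copies that were not tested (H2AC1, H2AC7, H2AC15, H2AC17, H2BC1, H3C4, H3C14, H3C15, H4C6 and H4C7) reached at most 11 counts in a library, and 2 of them, H2AC15 and H3C4, had none. H1-7 and H1-8, which serve in germ cells, had at most 3 counts.

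A few copies carried most of each family's counts. Of the normalised counts of their family, H4C3, H4C2 and H4C13 took 60%, H1-2, H1-4 and H1-5 took 91.9%, H3C7, H3C8 and H3C10 took 80.5%, H2AC8, H2AC12 and H2AC11 took 62.2%, and H2BC4, H2BC8 and H2BC11 took 41%. Per kilobase of canonical transcript, H4C3 had the highest mean over the 10 libraries at 3725 CPM per kb. The highest copies of the other families, H2BC4, H2AC8, H1-2 and H3C7, had 1684, 1681, 1255 and 1169 CPM per kb. Counts are per gene, and some genes have annotated exons beyond that transcript. All annotated exons of H2BC4 cover 2881 bases against 460 in the transcript. Its place above H2BC8 (489 bases in both, 1568 CPM per kb) is therefore uncertain. The exons cover 2679 bases against 482 for H3C6, 2454 against 412 for H4C16, 1850 against 510 for H2AC25 and 5002 against 456 for H2BC26. Reads of near-identical copies cannot be assigned with certainty. Fewer than 50% of the 50-base words of 11 copies and of H3-3A were found nowhere else, and their values are uncertain. The copies are H2AC13, H2AC14, H2BC12, H2BC18, H3C13, H3C14, H3C15, H4C11, H4C12, H4C14 and H4C15. Of H3C14, H3C15, H4C14 and H4C15 at most 0.8% of the words were their own, so their low counts do not show that they were silent. The family shares cover only reads assigned to a copy and leave out H2AC18, H2AC19, H3C2 and H3C3. The exons of 14 members overlap another gene, and the strand setting of the counting was not stated.

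The libraries held between 19781445 and 42428986 counts, and RN7SL2 and SNORD3A took 19.83% to 31.96% of them. The 75 histone genes took 2.44% to 3.22% of the counts at 24 h. At 48 h they took 1.97% and 2.08% with siNT1, 0.664% and 0.712% with siGGCAGU, and 1.12% and 1.14% with siGGGGGC. Of the epithelial markers, KRT8 was at 76.4 to 398 CPM and KRT18 at 92.8 to 303, EPCAM was at most 1.56 CPM and CDH1 at most 0.744. PAX8 and MUC16, listed with them, were at 3.35 to 35 and at 0 to 1.19 CPM. Of the mesenchymal markers, VIM was at 785 to 1510 CPM, CDH2 at 55.4 to 89.4 and FN1 at 48.8 to 1070. PTPRC, a leukocyte marker, and PECAM1, an endothelial one, were at most 0.201 and 0.735 CPM.

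The summed level of the 65 replication-dependent copies differed widely between the groups. In normalised counts (CPM, scaled to library size by TMM), the siNT1 libraries had 23470 and 25280 at 24 h and 16050 and 17050 at 48 h. The siGGGGGC libraries had 32960 and 34550 at 24 h and 9774 and 9258 at 48 h. The siGGCAGU libraries, at 48 h, had the lowest sums at 5945 and 5482. No 2 groups overlapped, and relative to siNT1 of the same time the sum was 1.39-fold higher with siGGGGGC at 24 h, 1.74-fold lower with siGGGGGC at 48 h and 2.90-fold lower with siGGCAGU at 48 h. In bulk RNA, fewer cells in S phase and less histone mRNA per cell cannot be told apart.

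The sum of the 6 variants lay in a narrower range. H3-3B held most of it, at 797 of 1074 CPM with siGGCAGU and 1038 of 1651 CPM with siGGGGGC at 48 h. The sum and the ratio below therefore mostly follow this gene. With siGGCAGU the median log2 fold change of the 6 variants was −0.90. Their summed level was 1573 ± 17.9 CPM (SD, n = 2) with siNT1 and 1811 ± 30.9 with siGGGGGC at 24 h, and 1307 ± 42.2 with siNT1, 1074 ± 54.7 with siGGCAGU and 1651 ± 19.7 with siGGGGGC at 48 h. The ratio of the copies to the variants, which is not corrected for length, was 15.5 ± 0.641 with siNT1 and 18.7 ± 0.94 with siGGGGGC at 24 h. At 48 h it was 12.7 ± 0.127 with siNT1, 5.32 ± 0.034 with siGGCAGU and 5.76 ± 0.152 with siGGGGGC. Both treated groups at 48 h therefore had a ratio below every siNT1 library. With siGGGGGC at 48 h the sum of the variants was above that of siNT1 while that of the copies was below it.

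The clusters differed in their sums. On the log2 scale, the 53 copies of the chromosome 6 cluster had a difference of −1.62 with siGGCAGU and −0.83 with siGGGGGC at 48 h, as mean differences from siNT1 of the same time. The 9 copies at the first locus on chromosome 1 had a difference of −1.56 with siGGCAGU and 0.05 with siGGGGGC at 48 h. The 2 copies at the other locus, H2AC25 and H2BC26, had −1.77 and 1.24, at sums of at most 43.6 CPM. At 24 h with siGGGGGC the 3 loci had 0.46, 0.93 and 1.505. These differences have no test of their own.

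**Figure D1:**
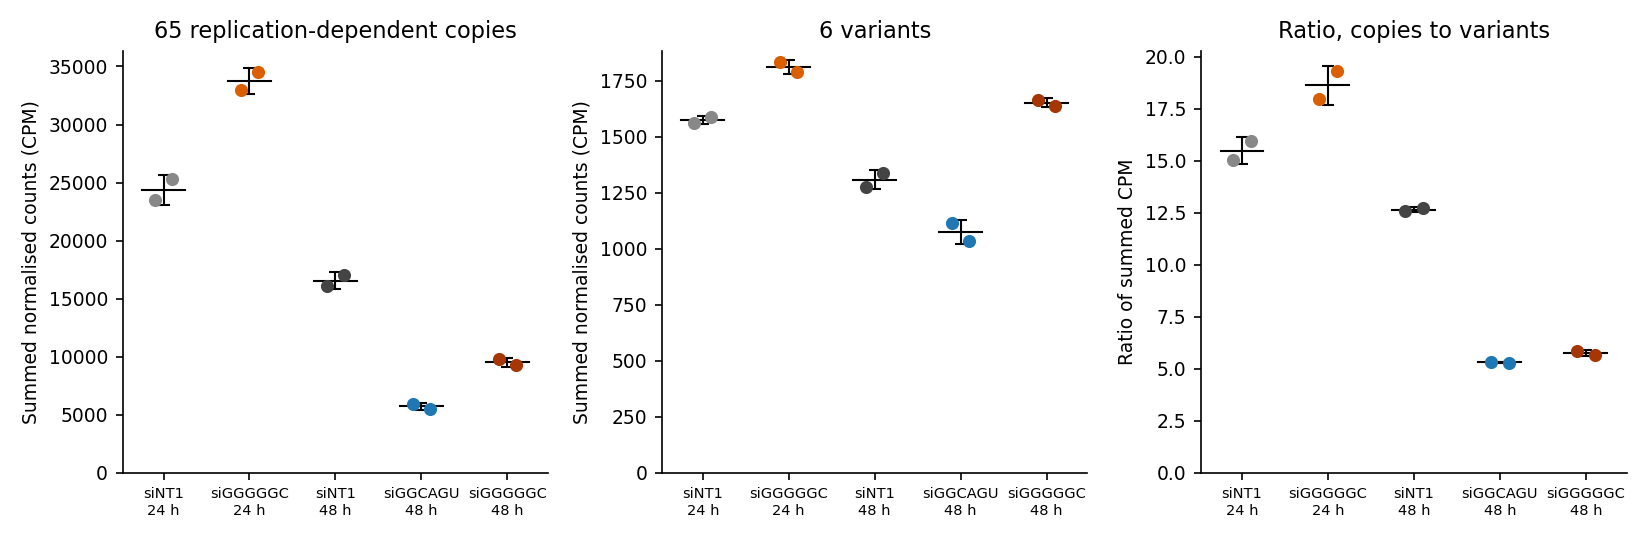
Summed normalised counts (CPM) of the 65 replication-dependent copies, of the 6 variants, and their ratio, in each of the 10 libraries by group. Points are libraries and bars are mean ± SD (n = 2); the copies were highest with siGGGGGC at 24 h (32960 and 34550 CPM) and lowest with siGGCAGU at 48 h (5945 and 5482 CPM), while the variants ranged from 1036 to 1833 CPM.

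Nearly all tested copies were lower with siGGCAGU than with siNT1 at 48 h. Of 55, 51 fell (adjusted p below 0.05 in the quasi-likelihood test of edgeR), 1 rose and 3 did not pass, when 24.9% of all 16905 genes tested fell and 27.8% rose. The median log2 fold change of the copies was −1.80 and that of all genes 0.02. With a fold of more than 2 as well, 47 copies fell and 0 rose, when 9.62% and 10.7% of all genes did. All 11 H2AC and all 17 H2BC copies tested fell, as did 5 of 6 H1, 7 of 8 H3C and 11 of 13 H4C copies.

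The H4 gene H4C13 fell in siGGCAGU-transfected cells from 601 and 658 CPM to 96.1 and 88.0 CPM, a log2 fold change of −2.78 ± 0.11 (SE). The linker gene H1-5 fell from 367 and 389 CPM to 58.4 and 58.4 CPM (−2.69 ± 0.09). Neither gene's groups came near each other. The largest drops were those of H3C13, from 41.9 and 24.0 CPM to 5.08 and 2.81 CPM (−3.13 ± 0.27), whose reads are largely shared with other genes, and of H2AC16, from 18.5 and 10.5 CPM to 1.86 and 2.03 CPM (−2.87 ± 0.28). Among the most abundant copies, H4C3 fell from 1310 and 1610 CPM to 515 and 500 CPM (−1.52 ± 0.11), and H1-2 from 684 and 781 CPM to 347 and 266 CPM (−1.26 ± 0.12). H2AC12 fell by 2.13, H3C7 by 1.94, H2BC8 by 1.59 and H2BC4 by 1.14 on the log2 scale.

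A few copies departed from this. H3C6 was the 1 copy that rose with siGGCAGU, from 13.7 and 13.9 CPM to 25.8 and 19.3 CPM (0.69 ± 0.13, adjusted p = 0.000269 by edgeR). H4C16, the copy on chromosome 12, had 533 and 622 CPM with siNT1 and 506 and 542 CPM with siGGCAGU, and its groups overlapped (−0.14 ± 0.10, adjusted p = 0.254 by edgeR). Without siNT1 48 h replicate 1 its value was −0.26 with an adjusted p of 0.0447. The other copies that did not pass, H4C9 and H1-6, had at most 3.62 CPM in these libraries. H3C6 and H4C16 have annotated exons beyond the stem-loop transcript, as has H2AC25 below. Which exons their reads came from was not tested.

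The variants divided with siGGCAGU, with 4 of 6 falling and 0 rising (edgeR, and 0 also at an unadjusted p below 0.05 and by DESeq2), when 24.9% of all genes fell and 27.8% rose. H2AZ1, the main gene of H2A.Z, fell from 381 and 387 CPM to 177 and 189 CPM (−1.07 ± 0.09). H2AZ2 fell from 98.4 and 91.7 CPM to 23.3 and 51.5 CPM (−1.32 ± 0.22), with siGGCAGU libraries far apart from each other. MACROH2A1, a large H2A variant of silent chromatin, fell by 0.73 on the log2 scale (SE 0.10). H2AX, the variant that is phosphorylated beside DNA breaks, fell from 28.02 and 19.8 CPM to 8.41 and 10.7 CPM (−1.30 ± 0.15). The genes of H3.3 did not pass. H3-3B had 695 and 766 CPM with siNT1 and 863 and 731 CPM with siGGCAGU (0.13 ± 0.10), and H3-3A had 10.1 and 10.2 CPM and 7.65 and 11.1 CPM (−0.08 ± 0.15), both with overlapping groups. H3-3A reached the threshold without siGGCAGU 48 h replicate 2, at −0.41 with an adjusted p of 0.0336 by edgeR.

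**Figure D2:**
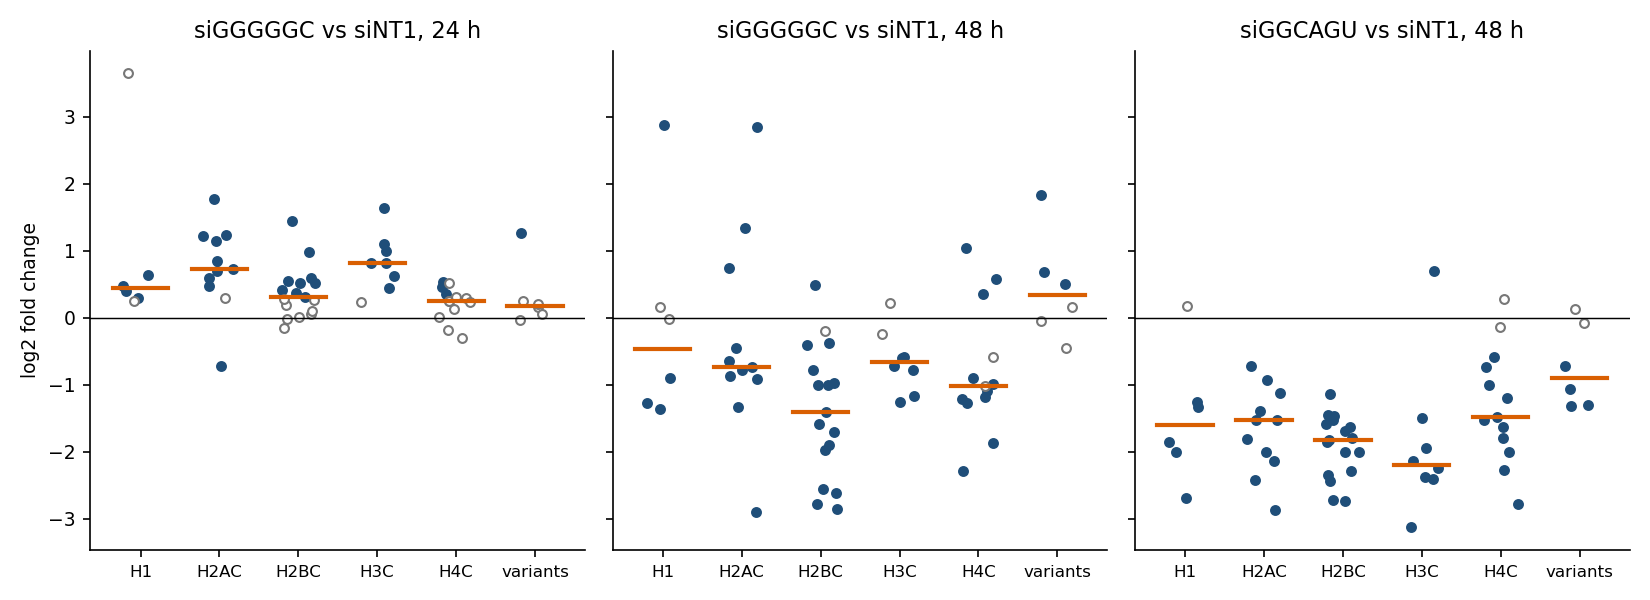
Log2 fold change of each tested histone gene against siNT1 of the same time point, by family of the replication-dependent copies and for the 6 variants, in 3 comparisons. Filled points passed (adjusted p below 0.05, edgeR), open points did not, and orange lines are medians; with siGGGGGC 32 of 55 copies rose at 24 h and 40 fell at 48 h, and with siGGCAGU 51 fell.

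At 24 h the direction with siGGGGGC was upward. Of the 55 copies, 32 rose, 1 fell and 22 did not pass, when 10.6% of all genes rose and 8.32% fell. The median log2 fold change was 0.44 for the copies and 0.003 for all genes. The H3C and H2AC copies had the largest medians (0.82 and 0.72), with 7 of 8 and 9 of 11 copies rising, and the H4C copies the smallest (0.25), with 3 of 13 rising. With a fold of more than 2 as well, 7 copies rose and 0 fell, when 1.55% and 2.17% of all genes did. The test shares its spread with the 48 h groups, whose replicates differed more. In the edgeR fit of the compared libraries alone, 5105 of 14869 genes passed, among them H1-5, H2AC8, H4C2 and H4C3, which had not passed. Fewer copies passed upward without siNT1 24 h replicate 1, where fewer of all genes passed too. With each library left out in turn, the log2 change of the summed copies was 0.42 to 0.54.

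H2AC11 rose at 24 h from 599 and 792 CPM to 1581 and 1700 CPM with siGGGGGC (1.24 ± 0.17). H3C8 rose from 424 and 570 CPM to 1023 and 1109 CPM (1.10), and H2AC20 from 114 and 126 CPM to 248 and 283 CPM (1.15 ± 0.12). Each of these 3 genes had no overlap between its groups. The highest values among copies that passed were those of H2AC25, from 1.84 and 2.82 CPM to 7.72 and 8.09 CPM (1.77 ± 0.22), and H3C13 (1.63 ± 0.22). H4C3 had 2149 and 2208 CPM with siNT1 and 2682 and 2641 CPM with siGGGGGC, which did not pass (0.29 ± 0.11, adjusted p = 0.081 by edgeR). It passed by the Wald test of DESeq2 (adjusted p = 0.0418) and in the fit of the compared libraries alone (adjusted p = 0.000331). H2BC10 was level in the 4 libraries, between 713 and 788 CPM (0.01 ± 0.10). The 1 copy that fell was H2AC21, whose exons overlap another gene, from 16.3 and 19.4 CPM to 10.0 and 11.5 CPM (−0.73 ± 0.18). It did not pass without siNT1 24 h replicate 2 (−0.58) or siGGGGGC 24 h replicate 1 (−0.62).

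At 48 h with siGGGGGC most copies were lower and a few were higher. Of the 55, 40 fell, 8 rose and 7 did not pass, when 27.5% of all genes fell and 27.8% rose. The median was −0.90 for the copies and −0.01 for all genes. With a fold of more than 2 as well, 22 fell and 4 rose, when 11% and 10.5% of all genes did. The H2BC copies had the lowest median (−1.41, 15 of 17 fell), followed by H4C (−1.01, 8 of 13), H2AC (−0.73, 8 of 11), H3C (−0.66, 6 of 8) and H1 (−0.46, 3 of 6). Fewer copies passed upward without siGGGGGC 48 h replicate 1, where fewer of all genes passed too. With each library left out in turn, the log2 change of the summed copies was −0.85 to −0.76.

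The strongest drops among abundant copies were those of H2B genes. H2BC10 fell from 430 and 519 CPM to 70.3 and 67.9 CPM with siGGGGGC (−2.78 ± 0.11). H2BC9 fell from 435 and 503 CPM to 80.1 and 72.7 CPM (−2.62 ± 0.11), and H2BC7 from 118 and 149 CPM to 23.1 and 22.3 CPM (−2.56 ± 0.13). For H2BC10, H2BC9 and H2BC7 every siGGGGGC library was below every siGGCAGU library. The lowest values of all copies were those of H2AC21, from 10.1 and 14.5 CPM to 1.98 and 1.36 CPM (−2.90 ± 0.22), and H2BC14, from 19.02 and 22.8 CPM to 3.57 and 2.27 CPM (−2.85 ± 0.17). H4C16, which did not pass with siGGCAGU, fell here to 240 and 259 CPM (−1.21 ± 0.10). H1-2 did not pass, with 684 and 781 CPM in siNT1 and 721 and 718 CPM in siGGGGGC (−0.03 ± 0.12), nor did H1-4 (0.15).

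The 8 copies that rose at 48 h with siGGGGGC were 3 H2A, 3 H4, 1 H2B and 1 H1 gene. H2AC11 rose from 520 and 369 CPM to 734 and 749 CPM (0.74 ± 0.17), and H2AC20 from 107 and 92.8 CPM to 247 and 259 CPM (1.34 ± 0.12). H2AC25 rose from 2.39 and 1.61 CPM to 13.5 and 14.8 CPM (2.85 ± 0.19). The other 5 that passed upward were H4C9 (1.04), H4C11 and H4C12, whose reads are shared, H2BC26 (0.49) and H1-6. H2BC26 lost its call in 3 of 4 fits without a library, at 0.17 without siNT1 48 h replicate 2, 0.48 without siGGGGGC 48 h replicate 1 and 0.49 without siGGGGGC 48 h replicate 2. H1-6, a testis linker gene, was at 0.0894 and 0.0441 CPM with siNT1 and 0.516 and 0.478 CPM with siGGGGGC, and no fold is given at these counts.

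**Figure D3:**
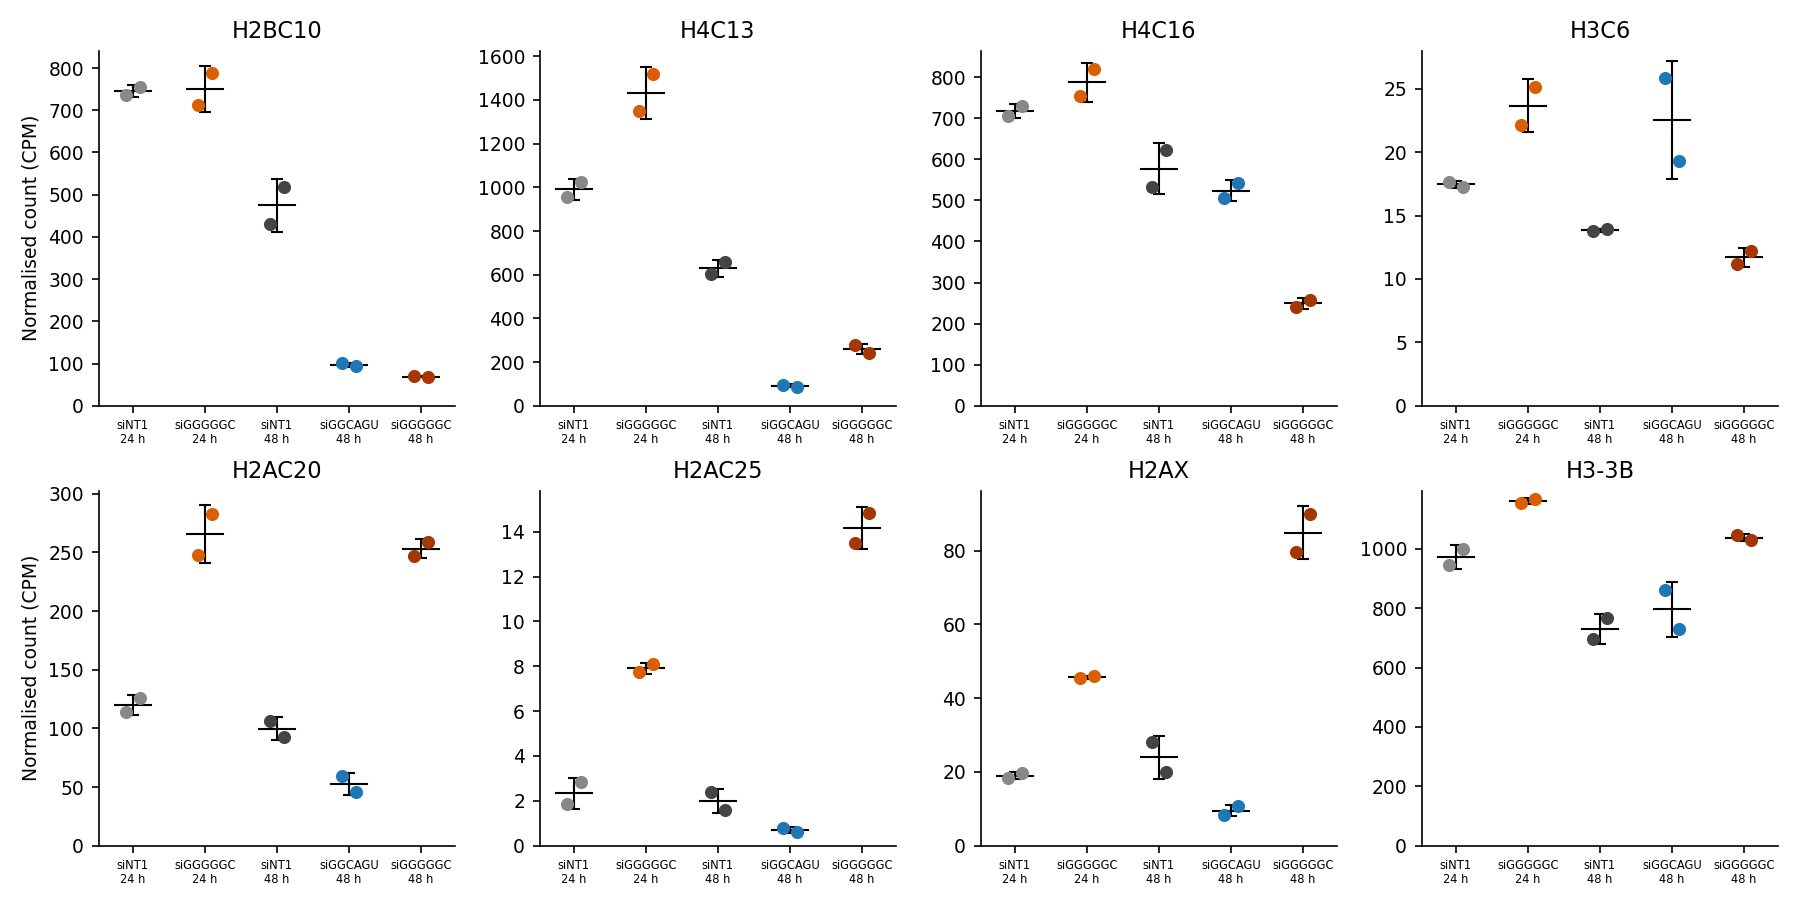
Normalised count (CPM) of 8 histone genes in each of the 10 libraries by group, with points for libraries and bars for mean ± SD (n = 2). H2BC10 and H4C13 were low in both treated groups at 48 h, H4C16 only in siGGGGGC (240 and 259 CPM), H3C6 was highest at 48 h with siGGCAGU, and H2AC20, H2AC25 and H2AX were high with siGGGGGC and low with siGGCAGU.

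Many H2A and H2B genes lie head to head and share the sequence between their starts. There were 12 pairs of an H2AC and an H2BC gene on opposite strands, transcribed away from each other from starts less than 1000 bases apart, and 8 pairs had both genes tested. With siGGGGGC at 48 h the log2 fold change of the H2A gene was above that of its H2B partner in 8 of 8 pairs, by a median of 1.18 and a range of 0.04 to 2.36. With siGGGGGC at 24 h this was so in 6 of 8 (median 0.30) and with siGGCAGU in 6 of 8 (median 0.32). In siNT1 from 24 to 48 h it was so in 0 of 8, with a median difference of −0.04. These differences between 2 genes are descriptions without a test, and the pairs were looked at after the members' values were known. The pairs are not fully separate. Only 36.5% of the 50-base words of H2AC13 and 33.7% of those of H2AC14 were their own, and each shared words mainly with the other. The share was 42.8% for H2BC12, 66.3% for H2BC26 and 76.6% for H2AC20.

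The pairs with the widest gaps at 48 h were H2AC25 and H2BC26 (2.85 and 0.49), H2AC20 and H2BC21 (1.34 and −0.20), H2AC14 and H2BC14 (−1.33 and −2.85), H2AC13 and H2BC13 (−0.64 and −1.90) and H2AC11 and H2BC11 (0.74 and −0.37). H2BC21 had 395 and 313 CPM with siNT1 and 305 and 310 CPM with siGGGGGC, while its partner H2AC20, whose start is 235 bases away, rose in the same libraries. The H2BC11 value did not pass without siNT1 48 h replicate 2 (−0.24) or siGGGGGC 48 h replicate 2 (−0.30). H2AC8 and H2BC8 (−0.91 and −1.41) and H2AC6 and H2BC4 (−0.78 and −0.97) were closer, and H2AC12 and H2BC12 (−0.73 and −0.77) nearly level.

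**Figure D4:**
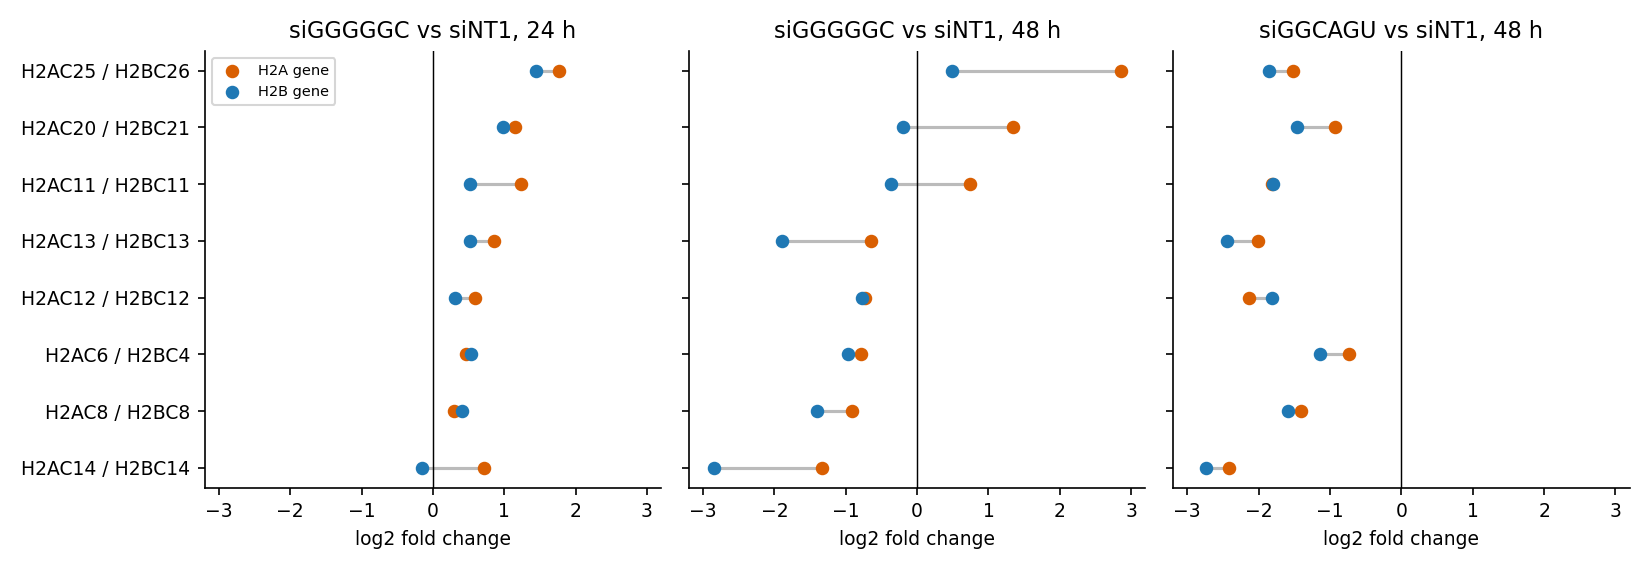
Log2 fold change against siNT1 of the 8 head-to-head pairs in which both genes were tested, the H2A gene in orange and the H2B gene in blue, joined by a line, in 3 comparisons. With siGGGGGC at 48 h the H2A gene was to the right in 8 of 8 pairs, by 0.04 to 2.36, while with siGGCAGU the gaps lay between −0.31 and 0.53.

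The treated groups were also compared with each other at 48 h. Of 55 copies, 38 were higher and 6 lower with siGGGGGC than with siGGCAGU, when 26.7% of all genes were higher and 27.6% lower, and the median was 1.01 (all genes −0.01). With a fold of more than 2 as well, 28 were higher and 3 lower, when 10.1% and 12.8% of all genes were. The highest values were those of H2AC25 (4.37 ± 0.24) and H3C13 (3.35 ± 0.28), and H2AC11 was at 2.55 ± 0.18. All 6 tested H1 copies were higher, among them H1-2 (1.23 ± 0.12) and H1-5 (1.42 ± 0.09). The lowest values were those of H2AC21 (−1.78 ± 0.24) and H2BC7 (−1.09 ± 0.13), and H4C16 (−1.07 ± 0.10), H3C6 (−0.93 ± 0.13), H2BC9 (−0.61 ± 0.11) and H2BC10 (−0.49 ± 0.10) were also lower. H2BC4 (0.17 ± 0.10), H2BC8 (0.18) and H4C2 (0.10) did not pass. Both treated groups share the siNT1 libraries at 48 h in the comparisons above, and this one does not use them. All 6 variants were higher with siGGGGGC, from 0.38 ± 0.10 for H3-3B to 3.14 ± 0.15 for H2AX. H3-3B did not pass without siGGCAGU 48 h replicate 2 (0.26).

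In cells with siNT1 alone the copies declined between the time points. Of 55, 37 were lower at 48 h than at 24 h, 0 higher and 18 did not pass, when 7.2% of all genes were lower and 9.37% higher. The 0 higher held at an unadjusted p below 0.05 (edgeR) and by the Wald test of DESeq2. The median was −0.53 (all genes −0.004). H3C7, an H3 gene, went from 823 and 822 CPM to 479 and 477 CPM (−0.78 ± 0.10), and H1-3, another linker gene, from 252 and 240 CPM to 105 and 126 CPM (−1.09). With a fold of more than 2 as well, 3 were lower and 0 higher, when 0.461% and 1.06% of all genes were. At any size, fewer copies passed as lower without siNT1 24 h replicate 2, where fewer of all genes passed too. With each library left out in turn, the log2 change of the summed copies was −0.61 to −0.49. Of the variants, H3-3B was lower (−0.41) and H2AZ2 higher (0.69), and both lost their call in fits without 1 library: H3-3B in 3 of 4 and H2AZ2 in 4 of 4.

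The siGGGGGC effect changed with time for most copies. The difference between the log2 fold changes at 48 and 24 h, tested as an interaction, was negative in 44 of 55 copies and positive in 1, when 15.2% of all genes were negative and 13.4% positive, with a median of −1.41 (all genes −0.01). With a difference beyond 1 as well, 40 were negative and 1 positive, when 6.36% and 4.83% of all genes were. All 17 H2BC and all 8 H3C copies had a negative difference that passed. The lowest were H2BC9 (−2.90 ± 0.15) and H2BC7 (−2.81 ± 0.18). H2AC25 was the positive one (1.08 ± 0.30), which did not pass without siNT1 24 h replicate 2, siNT1 48 h replicate 2 or siGGGGGC 48 h replicate 2. H2AC20, with 1.15 at 24 h and 1.34 at 48 h, had a difference that did not pass (0.20 ± 0.17), nor did H2AC11 (−0.50 ± 0.24).

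H2AX stood apart among the variants. Its levels were 18.4 and 19.6 CPM with siNT1 at 24 h, 45.4 and 46.0 CPM with siGGGGGC at 24 h, 28.02 and 19.8 CPM with siNT1 at 48 h, 8.41 and 10.7 CPM with siGGCAGU and 79.8 and 89.95 CPM with siGGGGGC at 48 h. The 2 siGGGGGC groups lay above all siNT1 libraries, and siGGCAGU below them. It rose by 1.27 ± 0.15 at 24 h and by 1.83 ± 0.14 at 48 h on the log2 scale. It was the 1 variant of 6 that rose at 24 h, when 10.6% of all genes rose, and 3 of 6 rose at 48 h, when 27.8% did. The others were H3-3B, from 695 and 766 CPM to 1047 and 1029 CPM (0.51 ± 0.10), and H3-3A (0.68 ± 0.14). H2AZ1 was between 363 and 387 CPM in siNT1 and siGGGGGC at 48 h (−0.04 ± 0.09). H2AZ2 went from 98.4 and 91.7 CPM to 70.0 and 68.9 CPM without overlap of its groups, and did not pass (−0.45 ± 0.22). It passed by edgeR with the compared libraries alone (−0.47, adjusted p = 0.000982) and without the count filter (−0.57, adjusted p = 5.04e-07). MACROH2A1 (0.16 ± 0.10) did not pass, except with the GC content offset (0.24, adjusted p = 0.0493 by edgeR).

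Of the linker genes outside the clusters, H1-10 was between 1.35 and 5.12 CPM throughout and rose with siGGGGGC at 24 h (1.10 ± 0.22). At 48 h its value of 0.63 ± 0.21 did not pass without siNT1 48 h replicate 2 (0.46), siGGGGGC 48 h replicate 1 (0.68) or siGGGGGC 48 h replicate 2 (0.55).

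Other genes of histone supply were taken from fixed lists. Their counts are set beside the shares over all genes: 24.9% fell and 27.8% rose with siGGCAGU, 27.5% and 27.8% with siGGGGGC at 48 h, and 8.32% and 10.6% with siGGGGGC at 24 h. Of 15 genes of histone transcription and 3′ end processing, 8 fell and 1 rose with siGGCAGU, 6 fell and 6 rose with siGGGGGC at 48 h, and 1 fell and 1 rose with siGGGGGC at 24 h, with medians of −0.29, −0.17 and 0.11. SLBP, the stem-loop binding protein, fell from 57.6 and 67.4 CPM to 47.9 and 42.2 CPM with siGGCAGU (−0.48 ± 0.10) and to 47.0 and 43.9 CPM with siGGGGGC at 48 h (−0.46 ± 0.10), and was between 59.7 and 63.0 CPM in all libraries at 24 h. CASP8AP2, also named FLASH, a part of the histone locus body, fell by 0.71 with siGGCAGU and by 0.80 with siGGGGGC at 48 h. NPAT, the coactivator of histone genes, fell from 25.1 and 26.4 CPM to 18.6 and 16.8 CPM with siGGCAGU (−0.55 ± 0.10). With siGGGGGC at 48 h it was at 33.6 and 29.9 CPM (0.30 ± 0.10), which did not pass without siNT1 48 h replicate 1 (0.25) or siGGGGGC 48 h replicate 1 (0.21). ERI1, the exonuclease that trims histone mRNA ends, fell by 0.85 with siGGCAGU, and SYMPK, the scaffold of the cleavage complex, by 1.00 with siGGGGGC at 48 h.

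Of 23 histone chaperones and deposition factors, 18 fell and 2 rose with siGGCAGU, 12 fell and 4 rose with siGGGGGC at 48 h and 1 fell and 5 rose with siGGGGGC at 24 h (all genes 24.9% and 27.8%, 27.5% and 27.8%, and 8.32% and 10.6%). The chaperone CHAF1A, which places new H3 and H4 at forks, fell from 36.8 and 32.6 CPM to 7.15 and 9.91 CPM with siGGCAGU (−1.998 ± 0.13) and to 21.6 and 19.3 CPM with siGGGGGC at 48 h (−0.76 ± 0.12). ASF1A, another H3 and H4 chaperone, rose in each comparison with siNT1, by 0.71 with siGGCAGU, 1.55 with siGGGGGC at 48 h and 0.57 with siGGGGGC at 24 h. Against the same shares, of 7 genes of histone mRNA decay 3 fell and 3 rose with siGGCAGU, 0 fell and 5 rose with siGGGGGC at 48 h, and 1 fell and 3 rose with siGGGGGC at 24 h. DCP2, the decapping enzyme, rose from 73.0 and 77.1 CPM to 165 and 164 CPM with siGGCAGU (1.13 ± 0.09) and to 294 and 291 CPM with siGGGGGC at 48 h (1.96 ± 0.09). It rose from 91.4 and 98.5 CPM to 245 and 268 CPM with siGGGGGC at 24 h (1.43 ± 0.09).

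Genes of S phase moved beside the histone copies in the comparisons with siNT1 of the same time, and their part in the histone changes was not tested. Of 18, 18 fell with siGGCAGU, with a median of −1.91 and a range of −3.19 to −0.88. With siGGGGGC at 48 h 11 fell and 3 rose (median −0.42), and at 24 h 0 fell and 8 rose (median 0.24). In siNT1 from 24 to 48 h, when 37 of the 55 copies were lower, 3 of these 18 genes were lower, 1 was higher and 14 did not pass (median 0.01). Of all genes, 24.9% fell and 27.8% rose with siGGCAGU, 27.5% and 27.8% with siGGGGGC at 48 h, 8.32% and 10.6% with siGGGGGC at 24 h, and 7.2% were lower and 9.37% higher in siNT1 over time. MCM3, of the replicative helicase, was at 131 and 137 CPM with siNT1, 15.4 and 14.1 CPM with siGGCAGU and 67.0 and 71.2 CPM with siGGGGGC at 48 h, so the order of the groups was that of the histone sum. RRM2, of ribonucleotide reductase, rose from 80.0 and 76.0 CPM to 191 and 185 CPM with siGGGGGC at 24 h (1.27 ± 0.11) and did not pass at 48 h (−0.06 ± 0.10). CCNE2, the cyclin that starts S phase, rose with siGGGGGC at 24 h (1.19 ± 0.11) and at 48 h (1.07 ± 0.11) and fell with siGGCAGU (−1.58 ± 0.12).

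**Figure D5:**
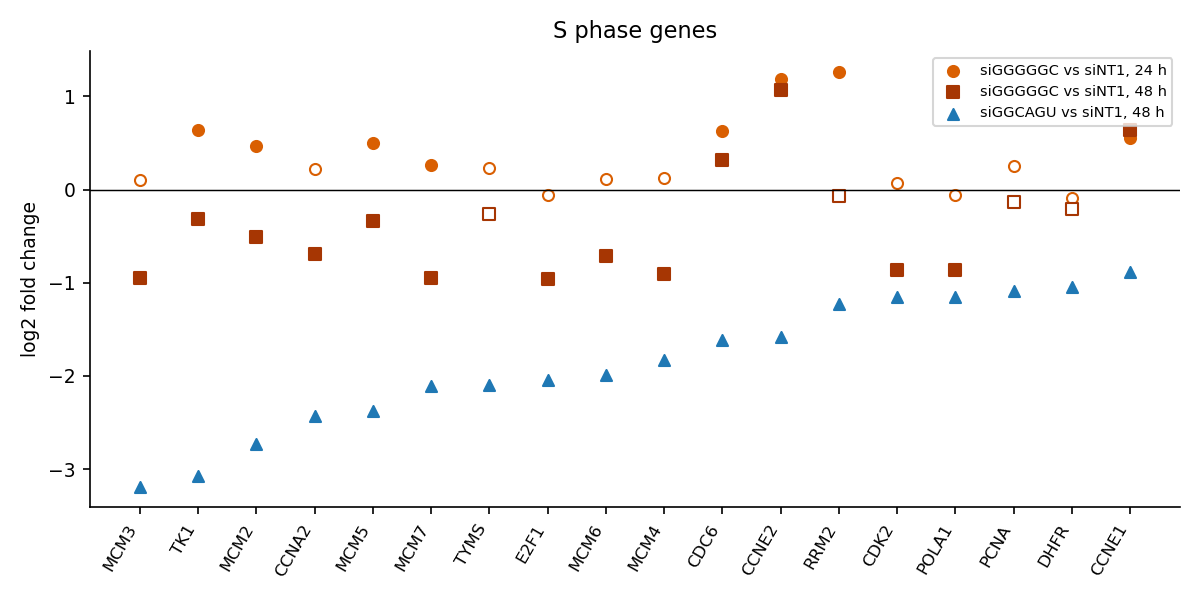
Log2 fold change against siNT1 of the same time point for 18 genes of S phase in 3 comparisons, ordered by the siGGCAGU value. Filled symbols passed (adjusted p below 0.05, edgeR); all 18 fell with siGGCAGU (−3.19 to −0.88), while with siGGGGGC 8 rose at 24 h and 11 fell at 48 h.

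Among 4 further histone genes outside the symbols used, 2 fell and 1 rose with siGGCAGU, 1 fell and 1 rose with siGGGGGC at 48 h, and 0 fell and 1 rose at 24 h, and of all genes 24.9% and 27.8%, 27.5% and 27.8%, and 8.32% and 10.6% did. CENPA, the centromeric H3, fell from 19.1 and 21.8 CPM to 4.63 and 5.21 CPM with siGGCAGU (−2.04 ± 0.12) and to 13.4 and 14.03 CPM with siGGGGGC at 48 h (−0.58 ± 0.11). H3-5, a close relative of the H3.3 genes, rose with siGGGGGC at 48 h (1.01 ± 0.15). The counts of 0 in the gene lists are by edgeR, and they were also 0 at an unadjusted p below 0.05 and by the Wald test of DESeq2.

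Over the 10 libraries the genes whose log2 CPM followed the summed copies most closely were KIF2C (Pearson r = 0.994), CCNB1 (0.994), FAM83D (0.994), SRSF7 (0.992) and LRR1 (0.991). The libraries share groups of 2, and these values are a description only. CCNB1 is a mitotic cyclin, and KIF2C a kinesin of the mitotic spindle.

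The seed matches were few in the copies. Among the 6 variants, H2AX and H3-3B held GCCCCC in the 3′ UTR (33.3%, against 28.4% of protein-coding genes). Both rose with siGGGGGC at 48 h, as did H3-3A, which did not hold it. Of the 55 tested copies, 9 held GCCCCC anywhere in the canonical transcript, and their median log2 fold change with siGGGGGC at 48 h was −0.41, against −0.98 for the 46 without it. Of the 9, 5 fell and 2 rose, and of the 46, 35 fell and 6 rose, when 27.5% of all genes fell and 27.8% rose. Only H2AC6, H2AC25, H2BC21, H4C12 and H4C16 of the 9 held it in the 3′ UTR, the region of the paper's seed match analysis. At 24 h the medians were 0.51 and 0.39. Of the 9, 6 rose and 0 fell, and of the 46, 26 rose and 1 fell, when 10.6% and 8.32% of all genes did. Targeting of these copies was not tested. ACTGCC was in 10 copies, in the 3′ UTR only in H2BC6. All 10 fell with siGGCAGU with a median of −2.0, and 41 of the other 45 fell, with a median of −1.63. With siGGGGGC at 48 h, H1-5 (−1.28), H4C16 (−1.21), H1-1 (−0.90), H2AC6 (−0.78) and H2BC17 (−0.41) fell among the 9 with GCCCCC. H2AC25 (2.85) and H4C12 (0.58) rose, and H1-4 (0.15) and H2BC21 (−0.20) did not pass. The copies with the 3 commonest stem-loops were 29 for that of H2BC8, 8 for that of H4C3 and 9 for that of H2BC4. In this order, their medians were −0.86, −1.14 and −0.90 with siGGGGGC at 48 h, 0.52, 0.27 and 0.52 with siGGGGGC at 24 h, and −2.0, −1.34 and −1.69 with siGGCAGU, without a test.

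The base composition of the copies moved with differences between replicates. Their transcripts had a median GC content of 57.8%, with a range of 47.4% to 65.3%, against 49.1% over protein-coding genes. Across the 55 copies, GC content and the log2 ratio of the replicates had a Pearson r of −0.53 in siNT1 at 24 h, 0.29 in siNT1 at 48 h and 0.52 in siGGCAGU, while over 16807 genes the values were −0.01, 0.14 and −0.08. In siGGGGGC r was −0.22 at 24 h and −0.18 at 48 h across the copies, and 0.08 and −0.12 over all genes. H3C8, for example, had 358 and 246 CPM in the siNT1 libraries at 48 h. Across the copies, GC content and the fold change had an r of −0.01 with siGGGGGC at 24 h, 0.22 with siGGGGGC at 48 h and −0.15 with siGGCAGU. It was 0.34 for siGGGGGC against siGGCAGU, −0.29 for siNT1 over time and 0.32 for the interaction. With a per-library trend on GC content removed, H2AC11 was at 0.88, H2AC25 at 2.91, H2AX at 1.85 and H4C13 at −1.10 with siGGGGGC at 48 h. H1-4 passed under this offset (0.31) and did not without it.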

How the data were processed

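Total RNA from HeyA8 cells was depleted of ribosomal RNA and sequenced as paired ends (TruSeq). The authors trimmed the reads, aligned them to hg38 with TopHat or STAR and deposited raw counts per Ensembl gene made with HTSeq, 1 table per library, and did not state the strand setting. Reads with several equally good places may be left out or split by such counting, which bears on near-identical histone copies. Their 4 tables of fold changes and p-values from DESeq2 were not used. The build is also given by the submitters' processing notes.

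Gene symbols came from GENCODE 44 by Ensembl identifier. Counts were normalised by TMM and fitted for all 10 libraries with a mean for each of the 5 groups in edgeR 4.0.16 (R 4.3.3), after its filter on low counts, leaving 16905 genes. The quasi-likelihood test was used with Benjamini-Hochberg adjustment over these genes and a threshold of 0.05. The fit had 5 residual degrees of freedom and a biological coefficient of variation of 0.0837. Errors of log2 fold changes are standard errors (±) from this fit, and values per library are CPM after TMM. Columns were taken only from the 10 libraries' own tables. The counts of the libraries of a group differed by more than sampling noise. Chi-square values per degree of freedom were 2.22 and 3.29 in the 24 h groups and 10.7 to 41.0 in the 48 h groups. The procedure was tested on simulated data.

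Total counts of 19781445 to 42428986 per library set the precision: members below about 1 CPM rest on few counts. Alternatives were size factors of DESeq2 (1.42.0 for its Wald test), library sizes from protein-coding genes or without RN7SL2 and SNORD3A, other count filters, fits of the compared libraries alone, a replicate block and leaving out each library. A GC content offset and a count over the copies with at least 90% of their 50-base words found nowhere else and no exon overlap with another gene were chosen after seeing the data.

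The members and lists were chosen with earlier results of these data known. The rule for naming took the 3 copies of each family with the highest mean normalised count, the variants and H1-10. It also took the 2 lowest and the 2 highest members that passed in each comparison. From the lists it took the 2 lowest and the 2 highest genes that passed in each list, and SLBP, NPAT and CASP8AP2. Not all of these values are given above, and only some of the list genes are. HJURP, IPO4, TK1 and E2F1, for example, are left out. H4C16, H3C6, H2BC9, H2BC10, H2BC21, H2BC26, H4C9, H1-3, H1-6, H2AC20, CCNE2, ERI1 and the head-to-head pairs were named after their values were seen where this rule does not take them. Stem-loops and seed matches were searched in the canonical transcripts of GENCODE 44, and promoters and miR-34a-5p are from RefSeq (GRCh38.p14). The values of 1 linker gene are not reported here. The duplicates were wells of 1 line, so p-values measure the spread between such wells.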

Additional observations from a re-analysis of the deposited data

Results flagged for a closer look

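The effect of siGGGGGC differed between the time points, by the interaction test of edgeR, for 44 replication-dependent copies with a lower effect at 48 h than at 24 h and 1 with a higher one (H2AC25, 1.08). Values are the log2 fold change against siNT1 at 48 h minus that at 24 h. Among the H2B genes, H2BC9 had −2.90, H2BC7 −2.81, H2BC8 −1.82, H2BC4 −1.51 and H2BC11 −0.90. Among the H3 genes, H3C7 had −1.87, H3C8 −1.70 and H3C10 −1.59. The H4 genes H4C13, H4C2 and H4C3 had −1.81, −1.41 and −1.28, and the linker gene H1-5 had −1.53. The H2A genes H2AC12 and H2AC8 had −1.32 and −1.20. Outside the copies, H2AX had 0.56.

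The value of H2AX did not pass in 7 of 8 fits without 1 library (0.32 to 0.63). H2AC25 did not pass without siNT1 24 h replicate 2 (0.73), siNT1 48 h replicate 2 (0.78) or siGGGGGC 48 h replicate 2 (1.00). The groups have 2 libraries each, so no library could be tested as an outlier.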

How the results depend on the processing

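With a log2 fold change beyond 1 as well, siGGGGGC at 24 h had 0 lower and 7 higher, siGGGGGC at 48 h 22 lower and 4 higher, siGGCAGU 0 higher, siGGGGGC against siGGCAGU 3 lower, and siNT1 at 48 h against 24 h 3 lower. Without the count filter siGGGGGC at 24 h had 2 lower, with the compared libraries alone 3 lower and an interaction of 2 higher. The interaction had 2 higher with a mean count of at least 50 and with the GC content offset. The cause of these shifts was not tested. Restricting the count to the 41 copies with their own words and no exon overlap, of which 36 were tested, left fewer genes to call: 0 lower and 21 higher for siGGGGGC at 24 h, 28 and 4 at 48 h, 32 and 1 for siGGCAGU, 5 and 23 for siGGGGGC against siGGCAGU, 25 and 0 for siNT1 over time, and 30 and 1 for the interaction. H2AC21, the 1 copy lower at 24 h, left this set because its exons overlap another gene.

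Without the filter the summed copies changed by −0.92 (siGGGGGC, 48 h), −1.62 (siGGCAGU), −0.47 (siNT1 over time) and −1.40 (interaction), and the summed variants by 0.22, −0.36, −0.18 and 0.001, and the median of all genes in the interaction was 0.143. The summed variants changed by 0.18 (siGGGGGC, 24 h) with library sizes from protein-coding genes and by 0.10 (interaction) without RN7SL2 and SNORD3A.

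Leaving out each library gave 0 to 1 lower and 19 to 25 higher for siGGGGGC at 24 h, 38 to 40 lower and 5 to 7 higher at 48 h, 49 to 52 lower for siGGCAGU, 6 to 8 lower and 37 to 40 higher for siGGGGGC against siGGCAGU, 16 to 35 lower for siNT1 over time, and 43 to 45 lower and 0 to 1 higher for the interaction. The libraries behind these limits were siNT1 24 h replicate 1 (19 higher) and siNT1 24 h replicate 2 and siGGGGGC 24 h replicate 1 (0 lower) at 24 h, siGGGGGC 48 h replicate 1 (5 higher) at 48 h, siNT1 24 h replicate 2 (16 lower) over time, and siNT1 24 h replicate 2 and siGGGGGC 48 h replicate 2 (0 higher) for the interaction. The summed copies ranged over 0.42 to 0.54 (siGGGGGC, 24 h), −0.85 to −0.76 (48 h), −1.59 to −1.48 (siGGCAGU), 0.67 to 0.79 (siGGGGGC against siGGCAGU), −0.61 to −0.49 (siNT1 over time) and −1.34 to −1.22 (interaction), and the summed variants over 0.19 to 0.23, 0.29 to 0.36, −0.34 to −0.23, 0.56 to 0.67, −0.29 to −0.23 and 0.085 to 0.15.

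The replicate numbers did not pair the samples, as the deviations of same-numbered libraries had correlations of −0.089 to 0.027. A replicate block gave 1 lower and 29 higher for siGGGGGC at 24 h, 40 and 8 at 48 h, 51 and 1 for siGGCAGU, 6 and 38 for siGGGGGC against siGGCAGU, 35 and 0 for siNT1 over time, and 44 and 1 for the interaction. The interaction of H2AX was 0.56 with an adjusted p of 0.0612 (edgeR) under the block.

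Of 240 gene and comparison values taken for this check, not all of which are given above, 208 were called. Over all settings 2802 called values were recomputed, of which 2680 kept their direction and side, 122 lost the call and 0 turned. Of all 3218 recomputed values 32 gained a call and 12 turned, none of them called. These turned in fits without 1 library at 24 h for H2AZ2 (range −0.17 to 0.109), H2AZ1 (−0.005 to 0.119) and SLBP (−0.04 to 0.051), at 48 h with siGGGGGC for H1-2 (−0.127 to 0.065), and with siGGCAGU for H3-3B (0.00 to 0.238) and H3-3A (−0.408 to 0.133). The GC content offset turned H2AZ2 (0.019) and SLBP (0.03) at 24 h and H1-2 (0.151) at 48 h, and the fit without the filter turned SLBP (0.009). The cause of these changes was not tested.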
